A study of Bos taurus with 4 samples.

Results

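The genes described here code for the protein factors that start and extend translation (symbols beginning with EIF or EEF) and for the aminoacyl-tRNA synthetases. They were taken by symbol, leaving out EIF4EBP1, and the rule itself uses no measured value. Of 7788 genes that a probe named on the bovine array, 59 were members: 27 initiation factors, 8 elongation factors and 24 synthetases. A further 41 symbols of the same kind, among them EIF4E, EIF4G1 and EIF2S3, had no named probe and were not analysed here.

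RNA came from semitendinosus muscle of bulls slaughtered at 15 months of age. Per the study, samples were cut from the muscle's central part and cleared of connective and fat tissue. On each of 4 arrays the cRNA of a Limousin bull (LIM, a beef breed) was labelled with Cy5 and that of a Holstein-Friesian bull (HF, a dairy breed, the reference) with Cy3, so that there were 4 bulls of each breed and no pooling. The labels give no treatment or genotype beyond the breed. Since no dyes were swapped, a difference between breeds and a difference between dyes cannot be told apart, and all 4 arrays lay on a single slide.

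Translation begins when eIF2 carries the initiator tRNA to the small ribosomal subunit. eIF3 and the eIF4 proteins bring that subunit to the mRNA cap and unwind the leader, and eIF5 triggers GTP hydrolysis once the start codon has been found. The eEF1 and eEF2 proteins then deliver charged tRNAs and move the ribosome, while each synthetase joins an amino acid to its tRNA, either in the cytosol or in the mitochondrion. In muscle, the rate of these steps is a known part of growth and of its response to feeding and exercise.

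Values are loess-normalized log2 ratios of the LIM over the HF channel, with the moderated SE of limma over n = 4 arrays. The direction follows the dye labels and runs opposite to the one that the study gives for EIF6, EEF1E1 and HBS1L. If the dyes were in fact the other way round, every sign, ranking and share of higher or lower genes below would turn, while the sizes and p values would stay. A probe was kept when, on 3 or more arrays, one and the same channel was well above background. This held for 58 members, and the exception was EIF5A2, an isoform of EIF5A, whose probe was above background on 2 arrays in LIM and on 1 in HF. The genes of muscle fibres among the markers checked (7 of 10 with a kept probe) were above background in both channels of every array. MB (myoglobin) was higher in LIM by 1.02 ± 0.15 (adjusted p = 0.0326), and so was the fibroblast collagen COL3A1 by 2.53 ± 0.44 (adjusted p = 0.0439). When each array was left out in turn, the limma adjusted p was 0.0644 to 0.107 for MB and 0.0287 to 0.135 for COL3A1, which passed in 1 of 4 such fits. At most 0.361% of all kept genes passed in any of these fits. The markers of a cell type did not share a direction: 3 of the 7 muscle markers and 3 of the 5 fibroblast markers were above 0. Lowest were MYH7 with -1.06 ± 0.32 (limma adjusted p = 0.116) and PDGFRA with -0.27 ± 0.19 (limma adjusted p = 0.429). With median centring these were -0.33 and 0.27. The other 4 fibroblast markers, 6 muscle markers and 7 markers of endothelium, macrophages, adipocytes and erythrocytes with a kept probe did not pass the test. The part of cell composition in the ratios was not tested. In RNA from tissue of mixed cells, fewer cells of a type and less RNA per cell cannot be told apart.

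Of the 58 kept members, 4 passed an adjusted p of 0.05 in limma with Benjamini-Hochberg adjustment over all kept probes. EIF3J was higher in LIM, and EIF4A1, EIF4A3 and HARS2 were lower. Over all kept genes the share past the test was 5.93% (2.78% higher and 3.15% lower), so the members' share was close to the background. At an unadjusted p under 0.05 there were 23 members (39.7%) beside 28.9% of all kept genes. A ratio of the same sign on all 4 arrays was found in 27 members (46.6%) beside 36.2% of all kept genes. Members were brighter, with a median log2 intensity of 10.56 beside 8.67. Among genes with a mean log2 intensity of at least 10, 40% of 35 members and 36.7% of all kept genes had an unadjusted limma p under 0.05. The shares with the same sign on all 4 arrays were 42.9% and 39.7% there. None of the 4 calls held when any single array was left out, when the adjusted p lay between 0.0563 (EIF4A1 without array 3) and 0.159 (EIF4A3 without array 4). In the same fits 0 of all 6376 kept genes passed without array 1, 2 or 4, and 23 (0.361%) without array 3.

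The sign of many members depended on how an array was centred. When arrays were centred on their medians and loess was left out, the median over all kept genes moved from 0.0029 to 0.35, and to 0.63 among genes with a mean log2 intensity of at least 10. Of 31 members below 0 with loess, 28 were then above 0, the exceptions being EIF4A1, EIF3B and GARS1, while 1 of 27 members above 0 (EARS2) turned below. Relative to the shifted median of all genes, 16 of the 31 were still below and 24 of the 27 still above. That median covers genes of every intensity, while with this centring the ratio climbed with intensity. The median was -0.21 at log2 intensities of 6 to 7 and 0.60 at 10 to 11. Values relative to all genes, here and below, are thus not matched for intensity. With median centring 23 of 58 members passed the test, all higher in LIM, beside 25.5% of all kept genes that passed in that direction. The lower means named below are therefore given with their median-centred values.

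**Figure D1:**
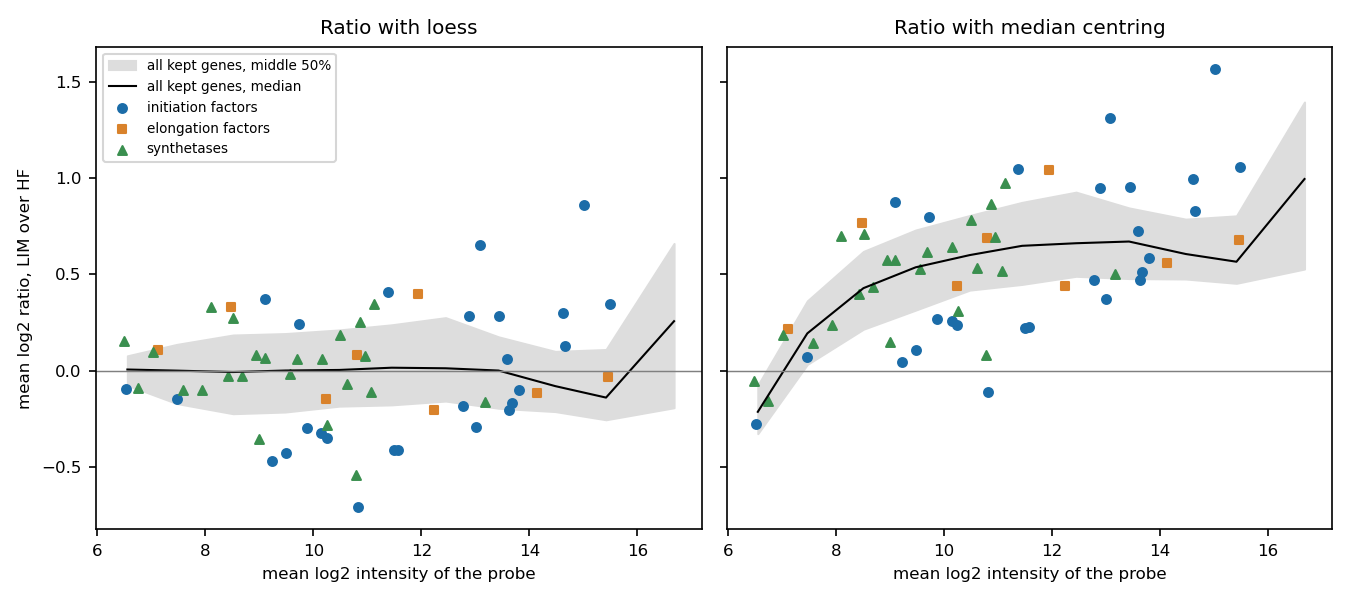
Mean log2 ratio (y axis, LIM over HF) of each kept member against the mean log2 intensity of its probe (x axis), with loess on the left and median centring on the right. The line is the median and the band the interquartile range of all kept genes in bins of intensity. With loess the line stays near 0 over most of the range, with median centring it climbs with intensity, and 28 of the 31 members below 0 on the left lie above 0 on the right.

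Initiation factors spread to both sides. Their median ratio was -0.12 (interquartile range -0.32 to 0.28) beside 0.0029 for all kept genes (-0.16 to 0.15). With median centring it was 0.49, beside 0.35 for all genes and 0.63 for genes with a mean log2 intensity of at least 10. The median log2 intensity of the initiation factors was 12.17. At an unadjusted p under 0.05 there were 16 of 26 (61.5%), 8 of them higher and 8 lower in LIM with loess. Among genes with a mean log2 intensity of at least 10, this share was 63.2% of 19 initiation factors and 36.7% of all kept genes. The median over the 26 was -0.020, -0.063, -0.30 and 0.035 on arrays 1 to 4, lowest on array 3.

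**Figure D2:**
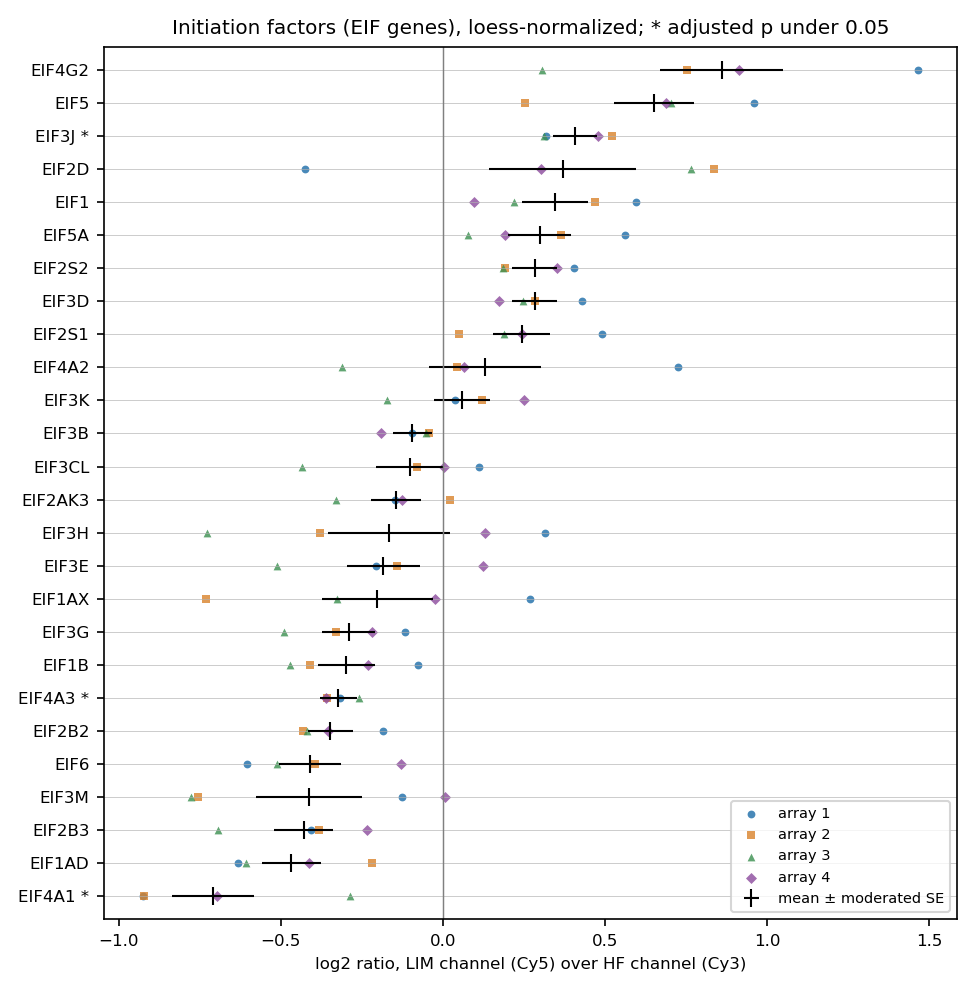
Log2 ratio of the LIM over the HF channel (x axis, loess-normalized) of 26 kept initiation factors on each of the 4 arrays (symbols), with the mean and its moderated SE (black). EIF4G2 and EIF5 head the list and EIF4A1 closes it; stars mark EIF3J, EIF4A3 and EIF4A1, which passed an adjusted p of 0.05, and of the 15 factors below 0 here all but EIF4A1 and EIF3B were above 0 with median centring.

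Among the eIF4 proteins, EIF4A1 codes for the RNA helicase of the cap-binding complex. Its log2 signals were 10.72, 10.38, 10.27 and 10.48 in LIM and 11.64, 11.31, 10.56 and 11.18 in HF on arrays 1 to 4. LIM was below HF on every array, least on array 3, and the channel levels overlapped. The ratio was -0.71 ± 0.13 (1.63-fold, 95% interval -1.03 to -0.39, limma adjusted p = 0.0456), and it was -0.11 with median centring, or -0.46 relative to all genes there.

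EIF4A3, a close relative of EIF4A1 that serves mainly in the exon junction complex, had log2 signals of 10.02, 10.02, 9.94 and 9.98 in LIM against 10.34, 10.37, 10.20 and 10.34 in HF. The channels did not overlap. The ratio was -0.32 ± 0.058 (1.25-fold, limma adjusted p = 0.0457), but its sign turned to 0.26 with median centring, which is -0.091 relative to all genes. Kept genes at log2 intensities of 10 to 11, the range of its probe, had a median of 0.60 with that centring. EIF4A2, the helicase paralogue that is abundant in muscle, gave 0.73, 0.045, -0.31 and 0.064 on arrays 1 to 4, with a mean of 0.13 ± 0.17 (limma adjusted p = 0.671). On the log2 scale EIF4A1 less EIF4A2 was -1.65, -0.97, 0.026 and -0.76, so that the helicases stood apart on 3 arrays and not on array 3.

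EIF4G2 (DAP5), an eIF4G relative that lacks the cap-protein binding site and supports cap-independent initiation, had the highest ratio of all members. Its log2 signal was 15.60, 15.33, 15.52 and 15.34 in LIM and 14.13, 14.57, 15.22 and 14.42 in HF. Every LIM level was above every HF level. The ratio was 0.86 ± 0.19 (1.82-fold, 95% interval 0.38 to 1.34), with 1.47 on array 1 and 0.31 on array 3, and an adjusted p in limma of 0.0651 just missed the threshold.

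**Figure D3:**
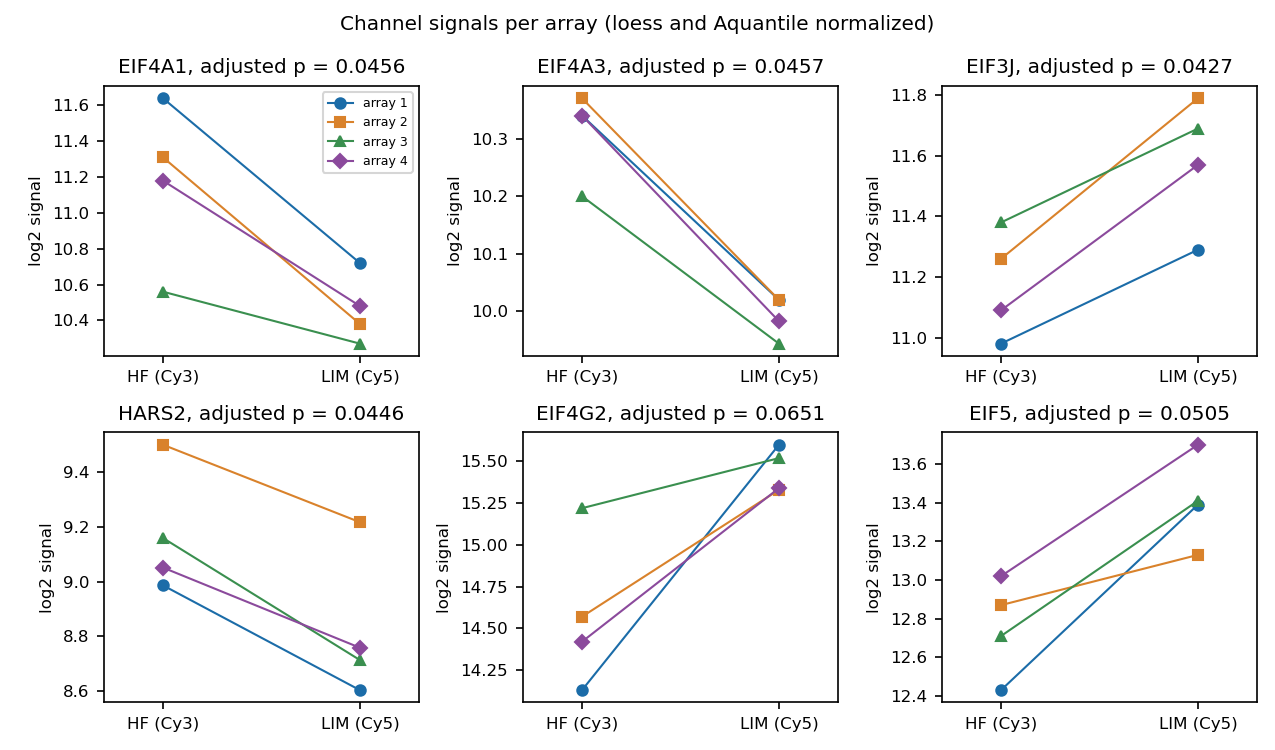
Log2 signal (y axis, loess and Aquantile normalized) of 6 factors in the HF (Cy3) and the LIM (Cy5) channel, with a line for each of the 4 arrays; each panel has its own scale. EIF4A1, EIF4A3 and HARS2 lie lower and EIF3J, EIF4G2 and EIF5 higher in LIM than in HF on all 4 arrays, and the direction of EIF4A3 and HARS2 turns with median centring.

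In eIF3, the scaffold that holds mRNA and ribosomal subunit together, 8 of 13 subunits listed had a kept probe, and 1 passed. This was EIF3J, a loosely bound subunit that sits in the decoding centre. Its log2 signals were 11.29, 11.79, 11.69 and 11.57 in LIM and 10.98, 11.26, 11.38 and 11.09 in HF, with the channels overlapping. The ratios of 0.32, 0.52, 0.31 and 0.48 gave a mean of 0.41 ± 0.069 (1.33-fold, 95% interval 0.23 to 0.58, limma adjusted p = 0.0427). EIF3D, the subunit that can itself bind a cap, came next with 0.28 ± 0.069 (limma adjusted p = 0.0774). At the other end stood EIF3M with -0.41 ± 0.16 and EIF3G with -0.29 ± 0.082, neither past the test, and both were above 0 with median centring (0.22 and 0.37). EIF3M gave -0.13, -0.76, -0.78 and 0.0060, so that its mean rested on arrays 2 and 3. The other subunits listed, EIF3B, EIF3E, EIF3H and EIF3K, lay between -0.18 and 0.059. With median centring EIF3E and EIF3H were above 0 (0.47 and 0.51) and EIF3B, whose ratio with loess was -0.095, was at -0.28. EIF3CL, outside that list, gave -0.10 ± 0.10 (0.58 with median centring), and since it is a near-identical copy of EIF3C their transcripts may share a probe.

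eIF2 and its exchange factor lay on opposite sides with loess. EIF2S1, the alpha subunit that stress kinases phosphorylate, gave 0.49, 0.049, 0.19 and 0.24 (mean 0.24 ± 0.089, limma adjusted p = 0.161). EIF2S2, the beta subunit, gave 0.41, 0.19, 0.19 and 0.35 (mean 0.28 ± 0.069, limma adjusted p = 0.0782). Both were above 0 on all 4 arrays.

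Of eIF2B, which reloads eIF2 with GTP, 2 of 5 subunits were measured. EIF2B2 gave -0.18, -0.43, -0.42 and -0.35 (mean -0.35 ± 0.070, limma adjusted p = 0.0558) and EIF2B3 gave -0.41, -0.38, -0.69 and -0.23 (mean -0.43 ± 0.091, limma adjusted p = 0.0618), and with median centring the means were 0.24 and 0.11. Relative to the median of all genes with that centring, these means were -0.11 and -0.24. In neither gene did the LIM and HF levels overlap. EIF2S2 and EIF2B3 had the highest and the lowest mean of these subunits. The ratio of EIF2S2 exceeded that of EIF2B3 by 0.81, 0.57, 0.88 and 0.59 on the 4 arrays, a direction that follows from their opposite signs. The stress kinase EIF2AK3 (PERK) had a mean of -0.14 ± 0.077 (limma adjusted p = 0.296), and 0.074 with median centring. EIF2D, which can deliver tRNA without GTP, varied most among the initiation factors, with -0.43 on array 1 and 0.84 on array 2.

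Among the factors of start codon selection and subunit joining, EIF5 had log2 signals of 13.39, 13.13, 13.41 and 13.70 in LIM and 12.43, 12.87, 12.71 and 13.02 in HF, without overlap. Its ratio was 0.65 ± 0.12 (1.57-fold, limma adjusted p = 0.0505). A second probe of EIF5 gave 0.46, 0.16, 0.53 and 0.38, with a mean of 0.38 ± 0.082 (limma adjusted p = 0.0626). Both probes were thus above 0 on every array and lowest on array 2.

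EIF1, which keeps the choice of start codon strict, gave 0.60, 0.47, 0.22 and 0.097 (mean 0.35 ± 0.10, limma adjusted p = 0.11), while its paralogue EIF1B gave -0.078, -0.41, -0.47 and -0.23 (mean -0.30 ± 0.087, limma adjusted p = 0.108, and 0.27 with median centring). EIF1 less EIF1B was above 0 on 4 of 4 arrays, with a mean of 0.64 (SD 0.23). Similar probes could cross-hybridize between such paralogues, which the files do not show.

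EIF6, which keeps the large subunit from joining too early and takes part in its assembly, had ratios of -0.61, -0.39, -0.51 and -0.13. The mean was -0.41 ± 0.096 (1.33-fold, limma adjusted p = 0.0724), and 0.23 with median centring. EIF1AD, a nuclear relative of eIF1A, had a mean of -0.47 ± 0.091 (limma adjusted p = 0.0531), and 0.044 with median centring. The channel levels of both genes did not overlap. EIF5A, the hypusine-bearing factor that helps ribosomes through stalling sequences, gave 0.56, 0.37, 0.077 and 0.19 (mean 0.30 ± 0.097, limma adjusted p = 0.131). EIF1AX had 2 kept probes with means of -0.20 and -0.21, the brighter of which was 0.47 with median centring.

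**Figure D4:**
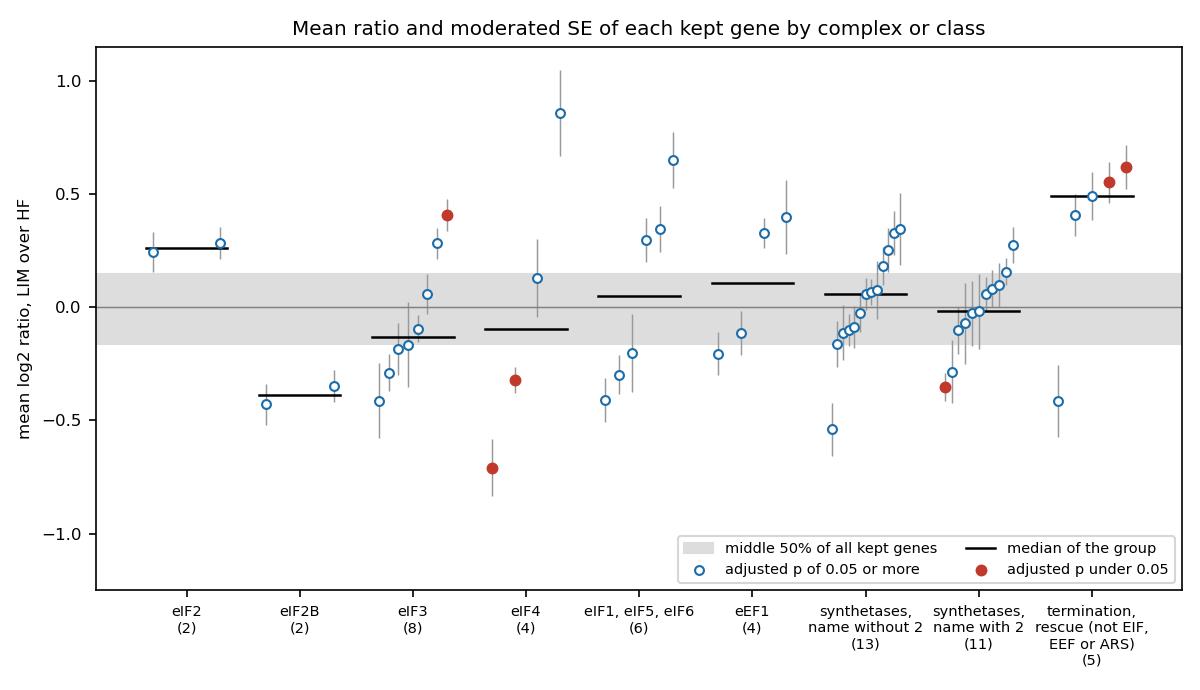
Mean log2 ratio (y axis, LIM over HF, loess) with its moderated SE for each kept gene, by complex or class (x axis, number of genes in brackets); black lines are medians and the band is the interquartile range of all kept genes. Both eIF2 subunits lie above and both eIF2B subunits below the band. Above it lie 4 of 5 termination and rescue genes, and the synthetases centre on 0. With median centring EIF2B2 and EIF2B3 were above 0 but below the median of all genes (-0.11 and -0.24 relative to it).

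The median of the 8 elongation factors was 0.023 with loess and 0.62 with median centring. None of them passed the limma test, and 1 (EEF1E1) had an unadjusted p under 0.05. EEF1A2, the eEF1A form of adult muscle and nerve, gave 0.00024, 0.86, 0.11 and 0.63 (mean 0.40 ± 0.17, limma adjusted p = 0.2). EEF1A1, the form of most other tissues, gave 0.071, -0.25, -0.42 and -0.22 (mean -0.20 ± 0.094, limma adjusted p = 0.238, and 0.44 with median centring). EEF1A2 less EEF1A1 was -0.071, 1.12, 0.52 and 0.85, above 0 on 3 of 4 arrays. The paralogues are alike in sequence.

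EEF1E1 (AIMP3) is named after eEF1 but is a scaffold of the multi-synthetase complex. Its log2 signals were 8.57, 8.54, 8.76 and 8.72 in LIM and 8.36, 8.23, 8.31 and 8.38 in HF. LIM was above HF throughout. The ratio was 0.33 ± 0.067 (1.26-fold, limma adjusted p = 0.0561). EEF2, which moves the ribosome along the mRNA, gave 0.27, -0.083, -0.50 and 0.17, with a mean of -0.034 ± 0.14 (limma adjusted p = 0.902, and 0.68 with median centring). Its inhibitory kinase EEF2K had a mean of 0.079 ± 0.065 (limma adjusted p = 0.487). The remaining 3 were EEF1B2 (an exchange factor), EEFSEC (which delivers selenocysteine) and EEF1AKMT3 (a methyltransferase of eEF1A), with means of -0.12, -0.15 and 0.11, and the former pair were above 0 with median centring (0.56 and 0.44).

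**Figure D5:**
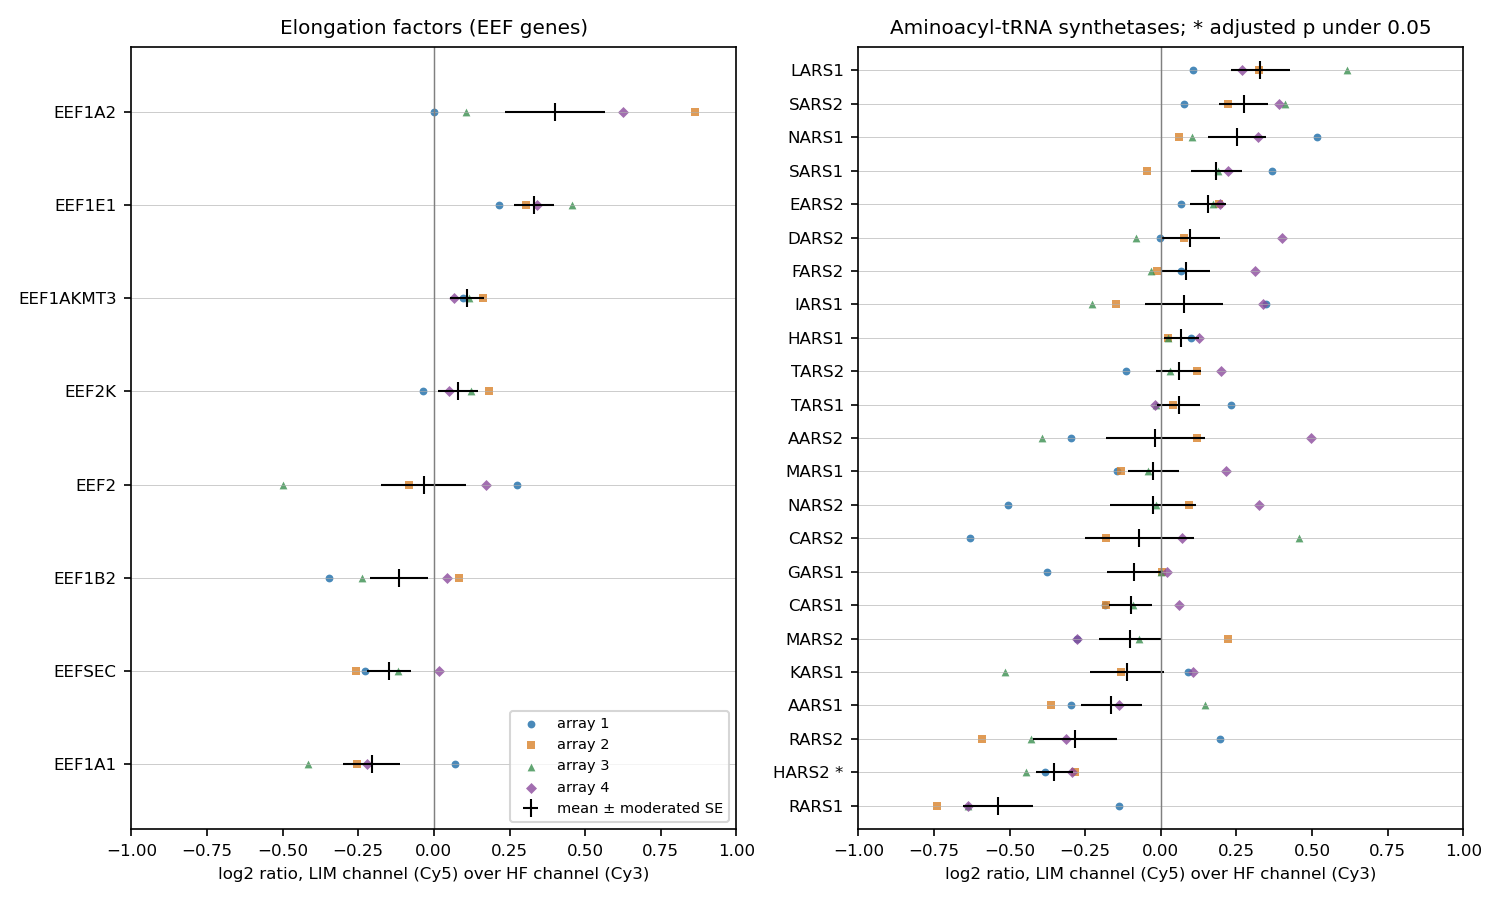
Log2 ratio of the LIM over the HF channel (x axis, loess-normalized) of 8 elongation factors (left) and 23 of the 24 synthetases (right) on each of the 4 arrays (symbols), with the mean and its moderated SE (black). HARS2 alone carries a star for an adjusted p under 0.05; of the 16 genes below 0 here, all but GARS1 were above 0 with median centring.

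Synthetases were spread much as all genes were. Of 24, 1 passed the test (HARS2, lower) and 6 (25%) had an unadjusted p under 0.05. The median was 0.020 with an interquartile range of -0.10 to 0.11, and 0.52 with median centring. The 13 without a 2 in the symbol, mostly cytosolic, had a median of 0.059, and the 11 mitochondrial enzymes with a 2 had one of -0.018.

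HARS2, the mitochondrial histidyl-tRNA synthetase, had log2 signals of 8.60, 9.22, 8.71 and 8.76 in LIM and 8.99, 9.50, 9.16 and 9.05 in HF. LIM was below HF within every array, while the channels overlapped across arrays because both were high on array 2. The ratio was -0.35 ± 0.062 (1.28-fold, 95% interval -0.51 to -0.19, limma adjusted p = 0.0446), and it turned to 0.15 with median centring, which is -0.20 relative to all genes.

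HARS1, the cytosolic enzyme for the same amino acid, is the next gene on the chromosome in the RefSeq annotation. It gave 0.098, 0.025, 0.024 and 0.13 (mean 0.068 ± 0.058, limma adjusted p = 0.503). HARS1 less HARS2 was 0.48, 0.31, 0.47 and 0.42, with a mean of 0.42 (SD 0.079).

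RARS1, the cytosolic arginyl-tRNA synthetase, had the lowest mean ratio among the synthetases. It gave -0.14, -0.74, -0.64 and -0.64 (mean -0.54 ± 0.12, limma adjusted p = 0.0629, and 0.080 with median centring). Its mitochondrial counterpart RARS2 gave 0.20, -0.59, -0.43 and -0.31 (mean -0.28 ± 0.14, limma adjusted p = 0.265, and 0.31 with median centring). In both genes array 1 was the highest, and RARS1 was below RARS2 on all 4 arrays.

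At the upper end, LARS1, which also senses leucine for mTORC1, gave 0.11, 0.32, 0.62 and 0.27 (mean 0.33 ± 0.097, limma adjusted p = 0.11). SARS2, the mitochondrial seryl-tRNA synthetase, gave 0.076, 0.22, 0.41 and 0.39 (mean 0.27 ± 0.081, limma adjusted p = 0.109). The mitochondrial glutamyl enzyme EARS2 was well above background on all 4 arrays in LIM and on none in HF. On every array more spots were above background in the LIM channel (32513 to 33527) than in the HF channel (27102 to 28769). Its mean log2 levels were 6.57 in LIM and 6.41 in HF, and its ratio of 0.16 ± 0.060 did not pass the limma test (adjusted p = 0.172). The ratio of so dim a probe moved with the processing, to -0.056 with median centring and 1.08 with the processed signals.

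Members were brighter than all kept genes (median log2 intensity 10.56 beside 8.67), and the next shares were not matched for intensity. Over the 3 classes, the LIM and HF channel levels did not overlap in 17 of 58 members (29.3%) beside 17.1% of all kept genes. Of these, 11 were initiation factors, with 4 higher in LIM (EIF2S1, EIF4G2, EIF5 and EIF5A) and 7 higher in HF (EIF1AD, EIF1B, EIF2B2, EIF2B3, EIF3G, EIF4A3 and EIF6) after loess. By symbol EEF1AKMT3 and EEF1E1 were the elongation factors, and EARS2, HARS1, LARS1 and SARS2 the synthetases, all higher in LIM. EARS2 counts among the 17 although it was kept through its LIM channel alone, the one in which it was higher. EEF1AKMT3 had a second, dimmer kept probe, with -0.016, -0.017, 0.14 and 0.12 on arrays 1 to 4 (mean 0.056). The directions of the 7 genes and of EARS2 turned with median centring. Relative to the median of all genes there, EIF3G was at 0.023 and the others of the 7 stayed below 0. EIF3G itself was at 0.37 with that centring, where kept genes at log2 intensities of 13 to 14, the range of its probe, had a median of 0.67.

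Array 3 gave the lowest ratio for 24 members (41.4%, beside 31.8% of all kept genes), and array 1 gave the highest for 23 (39.7%, beside 29.8%). Between pairs of arrays the correlation of the ratios across the 58 members ran from 0.32 to 0.73, given as a description. The median SD between arrays was 0.20 for members and 0.21 for all kept genes, several times the SD of 0.049 to 0.074 between duplicate spots of the members within an array.

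Beside the members act the genes that end translation and free the ribosome. Of 9 listed, 5 had a kept probe and 2 were higher in LIM, beside 2.78% of all kept genes. ABCE1, the ATPase that splits the ribosome, gave 0.41, 0.91, 0.59 and 0.57 (mean 0.62 ± 0.096, limma adjusted p = 0.0367). GSPT1 (eRF3a), the release factor GTPase, gave 0.59, 0.62, 0.72 and 0.28 (mean 0.55 ± 0.090, limma adjusted p = 0.0409). Without any 1 array neither passed, with limma adjusted p values of 0.0663 to 0.127 for ABCE1 and 0.0887 to 0.13 for GSPT1. At most 0.361% of all kept genes passed in such fits. The rescue GTPase HBS1L had a mean of 0.49 ± 0.10 (limma adjusted p = 0.0622), and the mitochondrial release factor MTRF1L one of 0.41 ± 0.093 (limma adjusted p = 0.07). PELO, the partner of HBS1L, had a mean of -0.41 ± 0.16 (limma adjusted p = 0.172), which was 0.20 with median centring.

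Of the poly(A)-binding proteins and partners, 4 of 7 were kept and LARP4, which binds poly(A) and stabilizes mRNA, was higher in LIM. It gave 0.85, 0.68, 0.87 and 0.72 (mean 0.78 ± 0.066, limma adjusted p = 0.0187). Without any 1 array its limma adjusted p was 0.0563 to 0.0887, in fits where at most 0.361% of all kept genes passed. PABPC1, the main cytoplasmic poly(A)-binding protein, had a mean of -0.45 ± 0.11 (limma adjusted p = 0.0717, and 0.21 with median centring).

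None of 3 kept synthetase partners passed the limma test, 1 of them (AIMP2, 0.40 ± 0.15) at an unadjusted p of 0.0449. None of 4 kept mitochondrial translation factors passed, and none had an unadjusted p under 0.05 (the smallest was 0.0646, MTIF2). None of 5 kept regulators of eIF4E, eIF2 and eIF5A passed in limma, and the 1 with an unadjusted p under 0.05 was PPP1R15A (GADD34), which recruits the phosphatase of eIF2 alpha. Its mean was -0.60 ± 0.14 (limma adjusted p = 0.0732), and -0.73 with median centring.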

How the data were processed

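Total RNA of 8 bulls was hybridised to 4 two-colour Agilent arrays by the authors. The deposited scanner files, made with Feature Extraction 10.7.3.1 per the file headers, hold spot intensity values (median foreground and background) for 42990 bovine spots of 21475 probes. The deposited series value table holds log10 ratios of the software's processed signals, median 0 on each array, and was used as an alternative. Flags set by the authors' software (a score of 0 or 1 per spot) marked spots above background.

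Here, in R 4.3.3 with limma 3.58.1, intensities were corrected by normexp (offset 50) and loess-normalized within arrays, with control spots at weight 0 and 5 to 10 outlier spots per array removed. None was saturated. Duplicate spots were averaged, and 15855 probes were kept (one channel well above background on 3 or more arrays). LIM spots above background numbered 32513 to 33527 and HF spots 27102 to 28769 per array. Precision is limited by the number of arrays. The ratio was tested against 0 (lmFit, eBayes, two-sided) with Benjamini-Hochberg adjustment over kept probes, of which 868 passed. The test was checked on simulated data. Channel levels came from loess and Aquantile.

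Probes were named through the array's RefSeq accessions and the RefSeq table of ARS-UCD 2.0, which named 8297 probes of 7788 genes. A gene is its brightest kept probe (6376 genes). As no source ties the array's probes to a build given here, no coordinates or sequences are printed. The values of 1 synthetase are not reported here. Members and lists were chosen with earlier results of these data known. Genes were named if past the test, among the 8 highest or 8 lowest ratios, paralogues of a fixed set, extremes of a complex or class, above background in one breed only, or named by the study; other members in the text fill out their complex. Each array pairs a LIM with an HF bull by hybridisation. Alternatives were other background corrections, normalizations, filters, variance models, probe rules, unpaired channels, the methods' t-test (p of at most 0.05 and a fold of at least 1.3) and leaving out each array. Centring on kept probes, with and without loess, was added after seeing the data.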

Additional observations from a re-analysis of the deposited data

How the results depend on the processing

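With 4 arrays, 1 slide and 1 dye orientation, calls near the threshold depend on single choices. In place of 4 of 58 members past the test, median centring gave 23 of 58, beside 27.2% of all kept genes. These shares were not matched for intensity. With that centring, genes with a mean log2 intensity of at least 10 had a median of 0.63, beside 0.35 for all genes. Median centring on the kept probes in place of loess gave 21 (19 higher, 2 lower), beside 33.4%. The processed signals, scale normalization and the series value table gave 1 each, beside 7.4%, 4.67% and 7.48% of all kept genes. The methods' t-test gave 8, beside 10.4%. After its Benjamini-Hochberg adjustment 0 members passed, and 0 of all kept genes (19 members at an unadjusted p under 0.05). Leaving out one array in turn left 0 to 0 members past the test in limma, beside 0 to 0.361% of all kept genes (18 to 23 members at an unadjusted p under 0.05). The medians moved with median centring and with its version on the kept probes to 0.49 and 0.24 for initiation factors, 0.62 and 0.36 for elongation factors, and 0.52 and 0.27 for synthetases. Leaving out one array in turn, the median of elongation factors ran from -0.0069 to 0.087, of initiation factors from -0.16 to -0.032, and of synthetases from -0.027 to 0.076. EIF4A3 reversed to 0.26 and 0.0026 with the same centrings, and HARS2 to 0.15 with the first. The cause was not tested. Without the pairing of the channels on an array (no replicate block), 5 members passed, beside 7.51% of all kept genes: EEF1E1, EIF2B3, EIF4A3, EIF4G2 and EIF5.

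Aquantile leaves the ratios as they are and the series value table repeats the processed signals. Over the 13 other settings with an adjusted p and all 4 arrays, EIF3J, EIF4A1 and EIF5 passed in 7 each and EIF4G2 in 6. EIF4A3, HARS2 and EIF1AD passed in 4 each, and EEF1E1 in 3. Of these genes, EIF5, EIF4G2, EIF1AD and EEF1E1 had not passed in the main fit.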
